A study of Mus musculus with 16 samples.

Results

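The enzymes that hydroxylate collagen and crosslink collagen and elastin were followed in single-cell RNA sequencing of the mouse thoracic aorta. They were taken by name as the lysyl oxidases Lox, Loxl1, Loxl2, Loxl3 and Loxl4, the lysyl hydroxylases Plod1, Plod2 and Plod3, and the prolyl 4-hydroxylase alpha subunits P4ha1 and P4ha2, which made 10 of the 31055 features listed. The rule used names and no values, although earlier results of these data were known when it was made. Prolyl and lysyl hydroxylases act on procollagen chains inside the endoplasmic reticulum. Hydroxyproline made by P4ha1 or P4ha2, each of which works in a complex with P4hb, keeps the collagen triple helix stable at body temperature. Hydroxylysine made by the Plod enzymes sets which crosslinks can form and carries sugars. Outside the cell, lysyl oxidases turn lysines of collagen and elastin into reactive aldehydes that join neighbouring chains. Loss of Lox in mice causes aortic rupture and aneurysm, loss of Loxl1 disturbs elastic fibers, and LOX variants underlie some human thoracic aortic aneurysms.

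Each of the 16 libraries came from 1 mouse. All were 129S6/SvEv males with a Myh11-CreER transgene, which sits on the Y chromosome and is active in smooth muscle, and all received tamoxifen at 6 weeks of age. Smad3SmKO mice carried 2 floxed copies of Smad3, the transcription factor downstream of TGF-beta receptors, and Smad3+/+ mice carried none, so Cre and tamoxifen were shared by controls. Aortas from root to left subclavian artery were taken 10 or 18 weeks after deletion, and live nucleated cells were sorted. At 10 weeks there were 2 Smad3+/+ and 2 Smad3SmKO libraries, all of batch 4 and digested for 60 min. The 18 week mice gave 5 Smad3+/+ and 7 Smad3SmKO libraries. Of these, batches 1 to 3 (3 Smad3+/+ and 4 Smad3SmKO) were digested for 30 min, and batches 5 and 6 (2 and 3) for 60 min. Batch 5 held Smad3SmKO mice alone. A green tracer of smooth muscle, labelled Myh11-GFP, was given for all 5 libraries of 60 min and 0 of the 7 of 30 min at 18 weeks, so tracer and digestion cannot be told apart there. At 10 weeks it was given for both Smad3+/+ and for 0 of the 2 Smad3SmKO libraries, so by the labels tracer and genotype cannot be told apart either.

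The counts were of unique molecular identifiers (UMIs), 12539539 to 52843031 per library. By the study's limits 50858 of 66349 cells (76.7%) were kept. VSMCs were 8950 cells with at least 5 Myh11 UMIs and fewer of Dcn (22 to 1706 per library), and fibroblasts were 36066 cells with at least 5 Dcn UMIs and fewer of Myh11 (196 to 5505). The endothelial gate (at least 2 UMIs of Pecam1 and Cdh5) took 3303 cells, but 54.9% of them also met the fibroblast gate and 7.15% the VSMC gate. Pooled Dcn stood at 7846 CPM (UMIs of a gene scaled to the total of the sum) in that gate and at 118.6 in its 1254 cells outside the other gates (4 to 170 per library, 15 libraries with at least 10 cells). The gate as a whole thus went against its label. Its results are given as those of the endothelial gate, and the 1254 cells, with 518.1 CPM of Cldn5 and 1100 of Egfl7, are called endothelial cells below. Endothelial markers summed to between 2132 and 3614 CPM in them. Leukocyte markers summed to between 12.16 and 1801 (median 142.3), and pericyte markers to between 83.74 and 11145 (median 370.7). Erythrocyte markers ran from 0 to 5954 (median 0.7644). The part of such other cells in the results was not tested. The 6 VSMC markers summed to between 42618 and 85826 CPM in VSMCs and to between 632.1 and 13676 in fibroblasts. The 6 fibroblast markers summed to between 507.1 and 1292 CPM in VSMCs and between 11432 and 23444 in fibroblasts.

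Some libraries did not match their labels. Smad3 in VSMCs averaged 5.04 and 6.63 CPM in Smad3+/+ and Smad3SmKO at 10 weeks, and 7.44 and 9.32 at 18 weeks. These tags come from transcript ends and need not lie in the deleted part, so they check nothing, and genotypes were taken from the labels. A listed feature named Sm3_intact had 0 UMIs in VSMCs of every library of either genotype, so it gave no check either. GFP UMIs were found in VSMCs of both Smad3SmKO libraries of 10 weeks, which were labelled without the tracer. They were absent from Smad3+/+ replicates 4 and 5 of 18 weeks, labelled with it, whereas 5 of the 7 libraries so labelled held some. The latter pair also shared 3507 cell barcodes as deposited, of which 2 were left among kept cells. Results were therefore also computed without these 4 libraries, a choice made after seeing the data. Smad3SmKO replicate 7 of 18 weeks was small, with 631 kept cells.

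Levels are CPM of the summed UMIs of a cell type in a library, that is, a share of that cell type's RNA. They were not scaled by transcript length, so they were compared between cells and never between genes. Differences are log2 fold changes from edgeR's quasi-likelihood test, adjusted over all genes tested, with library as a block where cell types were compared.

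In the GENCODE vM21 annotation of GRCm38 the lysyl oxidase genes lie on chromosomes 18 (Lox), 9 (Loxl1, 58287738 to 58313186), 14 (Loxl2, 69609068 to 69695834), 6 (Loxl3, 83034173 to 83052562) and 19 (Loxl4, 42593982 to 42612813). The hydroxylase genes lie on chromosomes 4 (Plod1, 147909753 to 147936767), 9 (Plod2, 92542223 to 92608428), 5 (Plod3, 136987019 to 136996648), 10 (P4ha1, 59323296 to 59373304) and 11 (P4ha2, 54100095 to 54131665). Loxl3 overlaps Htra2 and Plod3 overlaps Znhit1 on the opposite strand. Lox, Loxl2 and Plod2 overlap noncoding or unclassified genes there. Whether counting used strand was not given in the sources used here, so those 5 counts are less certain where the genes overlap.

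Promoter sequences are shown for 3 members that stood apart below: P4ha2, the single member higher in VSMCs than in fibroblasts, its relative P4ha1, which went the other way, and Plod1, the single member higher in endothelial cells. They come from the set of RefSeq promoters on GRCm38.p6 used here, which gave a window for 5 of the 10 members. Sequences are printed 5′ to 3′ on the strand of the gene. Each window is the part of the 250 bases before a RefSeq start that lies upstream of any annotated exon and of the RefSeq gene body. The P4ha1 window ends at 59323196, and the bases from there to the GENCODE start at 59323296 were left out. Capitals mark ACGTG, 1 form of the core of a hypoxia response element, or CAGAC, a Smad-binding box. Both were read on both strands, so that CAGAC may appear as GTCTG. The other form of the core, GCGTG, was not searched for or marked, though it occurs in each window shown.
P4ha2, chr11:54100674-54100923, plus strand: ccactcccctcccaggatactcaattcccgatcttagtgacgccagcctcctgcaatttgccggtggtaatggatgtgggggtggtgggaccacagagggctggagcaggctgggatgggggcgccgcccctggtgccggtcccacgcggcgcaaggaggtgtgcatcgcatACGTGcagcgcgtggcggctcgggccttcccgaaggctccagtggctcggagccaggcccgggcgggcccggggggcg
P4ha1, chr10:59323046-59323196, plus strand: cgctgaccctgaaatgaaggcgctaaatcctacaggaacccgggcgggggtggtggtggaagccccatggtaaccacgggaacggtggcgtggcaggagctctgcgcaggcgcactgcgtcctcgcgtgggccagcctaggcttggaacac
Plod1, chr4:147936777-147937026, minus strand: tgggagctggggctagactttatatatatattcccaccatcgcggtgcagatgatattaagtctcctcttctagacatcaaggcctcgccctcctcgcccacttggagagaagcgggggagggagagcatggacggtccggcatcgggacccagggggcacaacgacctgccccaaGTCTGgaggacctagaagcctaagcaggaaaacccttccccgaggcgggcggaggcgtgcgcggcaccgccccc
The P4ha2 window lies within the span of that gene in GENCODE, which lists transcripts that start further upstream, and the others lie before their genes. The P4ha2 window held 1 ACGTG and no CAGAC, the shorter P4ha1 window of 151 bases neither, and the Plod1 window 1 CAGAC and no ACGTG. Among 32851 promoters, ACGTG was found in 16.6% of windows of 250 bases and in 9.28% of windows of 151 bases, and CAGAC in 42.2% and 28.8%. A match of this kind is a description of letters and marks no site.

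The first comparison asked which wall cells carry these transcripts. Of the 10 members, 8 were lower in VSMCs than in fibroblasts and P4ha2 was higher, while Lox did not pass the test. Of all 14475 genes tested, 39.8% were lower and 31.0% higher in VSMCs, and the median log2 difference was -1.0 over the members and -0.08 over all genes. Without the 4 libraries named above, the same 9 members passed.

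Among lysyl oxidases, Lox was the transcript for which VSMCs and fibroblasts stood closest. Lox (lysyl oxidase proper, which acts on both elastin and collagen) ranged from 45.6 to 199.4 CPM with a median of 84.8 in VSMCs, and from 33.0 to 359.8 with a median of 114.8 in fibroblasts, over 16 libraries. The log2 difference was -0.30 (SE 0.17, adjusted p 0.105 by edgeR). It was lower in VSMCs in 11 libraries and higher in 5, so the ranges overlapped widely. Across 25 alternatives the value lay between -0.40 and -0.13, and Lox passed without Smad3+/+ replicate 1 (-0.39) or replicate 3 (-0.40) of 18 weeks, but not in the other 23.

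Loxl1, a partner of elastic fiber assembly, was instead a fibroblast-leaning transcript. In VSMCs it ranged from 92.5 to 282.5 CPM around a median of 136.6, and in fibroblasts from 176.8 to 530.5 around 348.7. The log2 difference was -1.28 (SE 0.16, adjusted p 4.47e-07 by edgeR), and 15 of 16 libraries had less in VSMCs. The exception was Smad3SmKO replicate 7 of 18 weeks, which had the highest VSMC level (282.5) and the lowest fibroblast level (176.8) of all libraries. Its fibroblast sum, of 196 cells, held 13676 CPM of VSMC markers, against 632.1 to 3969 in the other 15, and their part in the result was not tested. Loxl2 and Loxl3, which oxidise collagen and also have reported roles inside cells, were lower in VSMCs in 16 of 16 libraries. Loxl2 had medians of 20.4 and 69.8 CPM, a log2 difference of -1.60 (SE 0.12), and Loxl3 medians of 19.6 and 45.0, a difference of -1.10 (SE 0.11). Loxl4 was scarce everywhere, with medians of 0.561 CPM in VSMCs, where 64 UMIs were counted in all, and 2.36 in fibroblasts, and differed by -1.88 (SE 0.25).

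The lysyl hydroxylases were all lower in VSMCs, by less than the lysyl oxidases other than Lox. Plod1, which hydroxylates lysines of the collagen helix, had medians of 20.1 and 40.2 CPM and a log2 difference of -0.91 (SE 0.09). Plod3, which can also add sugars to hydroxylysine, had medians of 40.1 and 76.7 and a difference of -0.80 (SE 0.09). Both were lower in VSMCs of every library. Plod2, which hydroxylates the collagen ends that lysyl oxidases act on, was the nearest to parity of these 3, with medians of 80.0 and 100.0 CPM, a difference of -0.40 (SE 0.11, adjusted p 0.00205 by edgeR) and 14 of 16 libraries lower in VSMCs.

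The prolyl 4-hydroxylase subunits, which do the same chemistry, went in opposite directions. P4ha1 ranged from 30.1 to 72.7 CPM with a median of 47.8 in VSMCs, and from 78.3 to 163.2 with a median of 104.2 in fibroblasts, so the ranges did not overlap. P4ha2 ranged from 28.8 to 88.7 CPM with a median of 46.7 in VSMCs, and from 17.8 to 69.0 with a median of 34.1 in fibroblasts. P4ha1 was lower in VSMCs in 16 of 16 libraries, by -1.15 (SE 0.07, adjusted p 1.01e-11 by edgeR). P4ha2 was higher in 15 of 16, by 0.56 (SE 0.08, adjusted p 2.72e-06 by edgeR). Within a library the level of P4ha2 in VSMCs was between 0.878 and 1.91 times that in fibroblasts, and that of P4ha1 between 0.338 and 0.665 times. The plot of levels by cell type shows this crossing beside the other members.

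**Figure D1:**
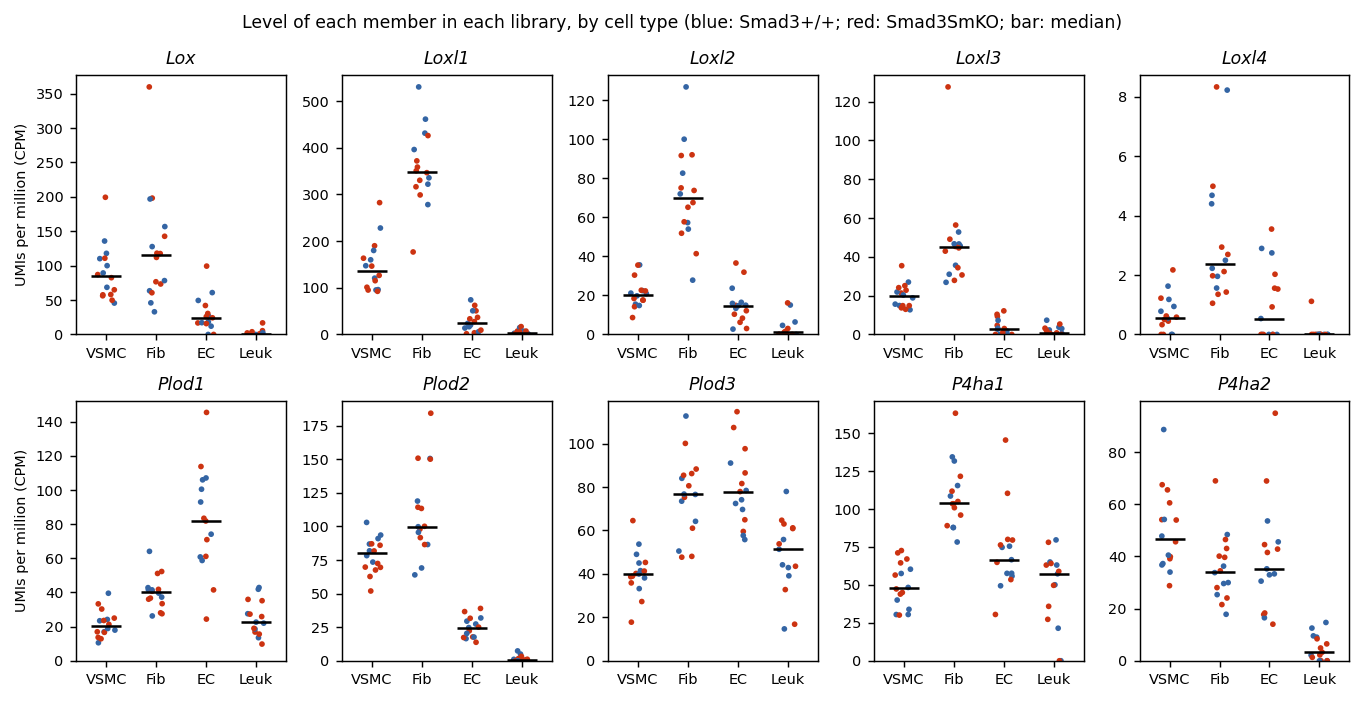
Level of each of the 10 members (CPM of the summed UMIs of a cell type, linear axes from 0) in VSMCs (VSMC), fibroblasts (Fib), endothelial cells outside the other gates (EC) and leukocytes (Leuk), with 1 point per library, blue for Smad3+/+ and red for Smad3SmKO, and a bar at the median. P4ha2 is the member whose VSMC median (46.7) lies above its fibroblast median (34.1), while P4ha1 has 47.8 and 104.2.

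In the endothelial gate, in which most cells also held Dcn, 8 members were lower than in fibroblasts and 0 higher, against 26.8% and 19.1% of all 13655 genes tested. DESeq2 also called 8. Plod1 (0.08, SE 0.08) and P4ha2 (-0.08, SE 0.08) did not pass. The values were between -0.81 and 0.08, and the fibroblast markers summed to between 2101 and 18757 CPM there.

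The endothelial cells outside the other gates, where these markers summed to between 107.6 and 1648 CPM, carried less of the crosslinking enzymes and more Plod1. Of the 10 members, 7 were lower and Plod1 was higher than in fibroblasts, against 33.3% lower and 25.7% higher of all 14275 genes tested. Loxl1 differed most, with a median of 23.7 CPM (1.53 to 74.2 over 15 libraries) and a log2 difference of -4.19 (SE 0.24). Lox had a median of 24.2 CPM and a difference of -2.25 (SE 0.19), Loxl2 14.7 CPM and -2.74 (SE 0.20), and Loxl3 2.75 CPM and -3.75 (SE 0.23). Among the hydroxylases Plod2 was lower by -2.32 (SE 0.15) with a median of 24.7 CPM, and P4ha1 by -0.89 (SE 0.11) with a median of 66.6. Plod1 had a median of 81.9 CPM (24.4 to 145.5), the highest of the 3 cell types, and a difference of 0.76 (SE 0.11, adjusted p 4.92e-06 by edgeR), higher than in fibroblasts in 14 of 15 libraries. Plod3 (-0.20, SE 0.10) and P4ha2 (-0.02, SE 0.17) did not pass, with adjusted p of 0.0811 and 0.929 by edgeR. Loxl4, at 9 UMIs in all, differed by -2.13 (SE 0.37).

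VSMCs set against the endothelial cells split the members. All 4 lysyl oxidases tested were higher in VSMCs, as were Plod2 and P4ha2, while Plod1, Plod3 and P4ha1 were lower, which is 6 higher and 3 lower of 9 tested against 30.0% and 36.7% of all 10031 genes. Loxl1 (2.61, SE 0.25), Loxl3 (2.43, SE 0.29), Plod2 (1.84, SE 0.13) and Lox (1.76, SE 0.25) had the highest log2 differences, and each was higher in VSMCs of 15 of 15 libraries. Plod1 (-1.79, SE 0.11) was lower in VSMCs of all 15. Against the whole endothelial gate 2 members were higher in VSMCs, Lox by 0.36 (SE 0.15, adjusted p 0.0404 by edgeR) and P4ha2 by 0.61 (SE 0.08), and 7 lower, against 29.9% and 33.4% of all 12468 genes. Lox passed there in 13 of 25 alternatives, and did not when any of 9 libraries was left out (Smad3+/+ replicates 1 to 4 and Smad3SmKO replicates 5 and 6 of 18 weeks, both Smad3+/+ replicates and Smad3SmKO replicate 1 of 10 weeks). Loxl1 (-0.53), Loxl2 (-0.86) and Loxl3 (-0.42) had the opposite sign in that gate.

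**Figure D2:**
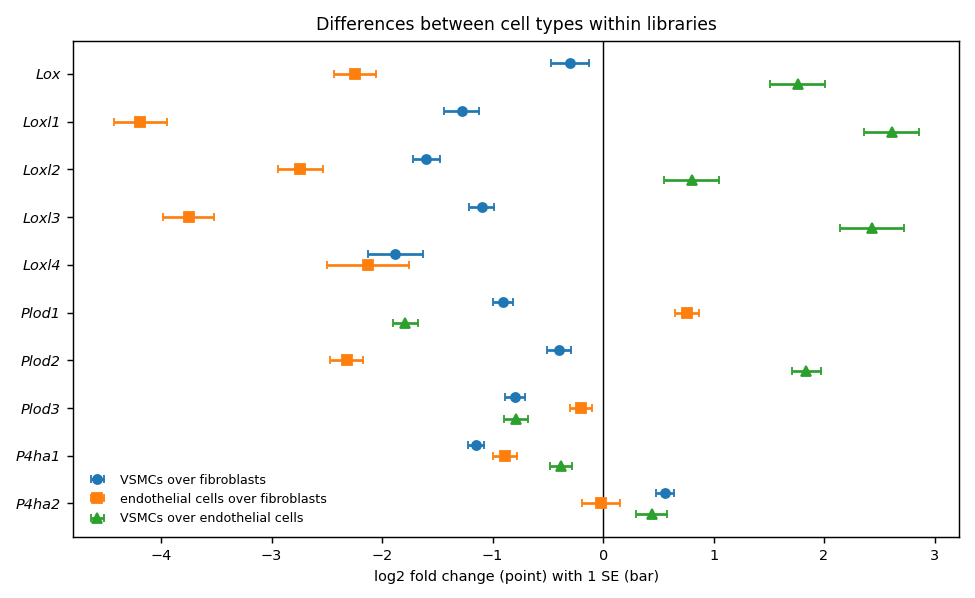
Log2 differences (point, with 1 SE as a bar) of the members between VSMCs and fibroblasts, between endothelial cells outside the other gates and fibroblasts, and between VSMCs and those endothelial cells. Plod1 is the member above 0 in the comparison of endothelial cells with fibroblasts (0.76), and P4ha2 the member above 0 in that of VSMCs with fibroblasts (0.56).

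Cells with at least 1 UMI of a member were counted after each cell was thinned to 2000 UMIs, beside leukocytes (1359 cells with at least 2 Ptprc UMIs and in no gate) as the background. Lox was seen in 16.7% of VSMCs (95% exact interval 15.9 to 17.5%), 15.6% of fibroblasts and 2.79% of endothelial cells, with 0.294% of leukocytes. Loxl1 was seen in 28.0% of VSMCs, 46.4% of fibroblasts, 3.43% of endothelial cells and 1.10% of leukocytes. P4ha2 was seen in 8.51% of VSMCs, 6.37% of fibroblasts and 1.03% of leukocytes. These are above the leukocyte share, as was Plod2 (15.7% of VSMCs, 17.3% of fibroblasts, 0.368% of leukocytes). Plod1, Plod3 and P4ha1 were read in 5.45, 9.64 and 10.9% of leukocytes themselves, and in smaller shares of VSMCs, 3.79, 8.05 and 7.99%. Leukocytes may hold these 3 transcripts of their own, and so give no background for them. These shares do not decide whether VSMCs express them. Loxl3 in endothelial cells (0.399%) lay near the leukocyte share (0.294%). Without thinning, Lox was in 47.1% of VSMCs, 37.7% of fibroblasts and 1.03% of leukocytes, and Loxl1 in 67.9, 80.6 and 2.65%, at median depths per library of 5812 to 21902 UMIs in VSMCs, 4318 to 26326 in fibroblasts and 4394 to 10896 in leukocytes. The intervals cover counting error only. Cells were pooled over libraries, and a library's part in the pool differed between cell types. The shares are thus no comparison within libraries. Lox, with the higher pooled share in VSMCs than in fibroblasts, had the lower CPM there in 11 of 16 libraries.

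The other genes of collagen and elastin assembly were read against the 39.8% of all genes that were lower in VSMCs and the 31.0% that were higher. Of 8 substrates, 5 were lower in VSMCs, among them Col1a1 (-2.28), Col3a1 (-2.16) and Col1a2 (-1.89), which form the fibrils, and 3 were higher, namely Col4a2 (0.85) and Col4a1 (0.28) of the basement membrane and Eln (0.74), which encodes elastin. The median over the 8 was -1.39. Of 15 collagen modification and folding partners, 12 were lower, such as the sugar transferase Colgalt2 (-3.31), the third prolyl 4-hydroxylase subunit P4ha3 (-2.01) and the collagen chaperone Serpinh1 (-1.32), and Tmem38b, an ion channel of the endoplasmic reticulum, was higher (2.08). The median was -0.93. Of 14 processing and lysyl oxidase partners tested, 9 were lower, such as Fmod (-5.89), Pcolce (-4.52), Pcolce2 (-2.85) and Bmp1 (-2.42), the protease that frees active Lox from its propeptide. Postn (0.88) and Fn1 (0.89), matrix proteins that bind Lox or Bmp1, were higher, and the median was -1.15. These medians stand beside -0.08 for all genes.

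Hypoxia-induced genes, a group to which P4ha1, P4ha2, Plod2 and Lox are known to belong, did not share 1 direction between VSMCs and fibroblasts. Their counts stand beside 31.0% higher and 39.8% lower of all genes. Of 12, 5 were higher in VSMCs, such as the glucose transporter Slc2a1 (1.37) and Egln3 (0.93), and 3 lower, such as Vegfa (-2.46) and Adm (-1.41), with a median of 0.24. In endothelial cells against fibroblasts 6 were higher and 1 lower (25.7% and 33.3% of all genes), with a median of 0.44, and there P4ha1, Plod2 and Lox were lower. In endothelial cells 5 of 8 substrates (Col1a1 -4.60) and 13 of 15 modification partners (P4ha3 -2.78) were lower than in fibroblasts, beside 33.3% of all genes.

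The genes whose levels ran most like those of Lox and Loxl1 were sought over 48 sums (16 libraries, 3 cell types with the whole endothelial gate) among 8196 genes. Nearest to Lox were the proteoglycan Bgn, the protease Adam9 and the extracellular superoxide dismutase Sod3 (Pearson r of log2 CPM 0.695, 0.694 and 0.689). Nearest to Loxl1 were Col6a1, Col6a2 and Col1a2, the first pair being chains of the microfibril collagen VI (0.922, 0.910 and 0.869). The sums of a library share its mouse, digestion and depth, and these values are a description.

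The next comparison asked whether the members respond to loss of Smad3 in VSMCs. At 10 weeks 0 of 9 members tested passed by edgeR (0% of 11852 genes did), 1 had an unadjusted p under 0.05 and DESeq2 called 0. At 18 weeks it was again 0 of 9 (0.0422% of all genes), with 1 at an unadjusted p under 0.05, and 0 by DESeq2. Loxl4 was too scarce in VSMCs to be tested. The median log2 difference over the members was -0.13 at 10 weeks and -0.14 at 18 weeks, and -0.01 over all genes at both times.

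At 10 weeks, with 2 mice against 2, the lysyl oxidases Lox, Loxl1 and Loxl3 were each lower in both Smad3SmKO libraries than in both controls. Lox was at 135.8 and 100.0 CPM in Smad3+/+ and at 87.1 and 58.1 in Smad3SmKO, a log2 difference of -0.66 (SE 0.34). Loxl1 was at 228.1 and 147.3 against 146.5 and 126.6 (-0.42, SE 0.28), so its groups all but touched. Loxl3 was at 27.0 and 15.6 against 14.8 and 13.7 (-0.55, SE 0.24), with the smallest unadjusted p of the members, 0.038 by edgeR, and an adjusted p of 1.0. Of all genes tested, 14.8% had both Smad3SmKO libraries below both controls, and 3 of 9 members did. The fibroblast markers in VSMCs, none of which passed, summed to 631.3 and 710.7 CPM in Smad3+/+ and to 507.1 and 519.5 in Smad3SmKO. The 6 dissociation-induced genes, of which 0 passed by edgeR, summed to 2121 and 3674 CPM in Smad3+/+ and to 1415 and 1628 in Smad3SmKO. The part of either list in the result was not tested. Without Smad3+/+ replicate 1 the Loxl3 value was -0.23. Both Smad3SmKO libraries of this time are among those at odds with their tracer label, and without them no comparison at 10 weeks can be made.

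At 18 weeks Plod2 was the member with the smallest unadjusted p. In Smad3+/+ VSMCs Plod2 was at 78.3, 86.9, 73.5, 93.6 and 103.0 CPM (replicates 1 to 5), 87.1 ± 11.8 (SD, n = 5). In the 7 Smad3SmKO libraries it ranged from 51.9 to 87.1 with a median of 69.5, and 5 of the 7 lay below every control, though the groups overlapped. At 18 weeks 0 of 9 members in VSMCs had every Smad3SmKO library below every control (0.101% of all genes) or above (0.0844%). The log2 difference was -0.43 (SE 0.13), with an unadjusted p of 0.00351 and an adjusted p of 0.851 by edgeR. With batch in the fit, the Smad3SmKO libraries of batch 5, which held no control, added nothing to this or the other 18 week genotype differences. In each of the 4 batches with both genotypes Smad3SmKO was lower, by log2 differences of -0.17, -0.50, -0.36 and -0.65. The 4 pericyte markers in the same VSMC sums, of which 0 passed by edgeR, went the other way in each of these batches. They summed to between 128.3 and 369.8 CPM in Smad3+/+ (median 179.4) and between 194.8 and 1210 in Smad3SmKO (median 486.4), and their part in the result was not tested. The value lay between -0.54 and -0.28 over 27 alternatives, with adjusted p from 0.445 to 1, and without the libraries at odds with their tracer label it was -0.38 (SE 0.18). In VSMCs of 10 weeks Plod2 stood at -0.10 (SE 0.16).

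P4ha1 and Lox came next at 18 weeks and neither passed. P4ha1 ranged from 33.9 to 60.4 CPM in Smad3+/+ and from 45.0 to 72.7 in Smad3SmKO, a log2 difference of 0.38 (SE 0.20), higher in 3 of 4 batches. Lox was at 117.9, 45.6, 110.2, 68.5 and 89.4 CPM in Smad3+/+ and ranged from 49.8 to 199.4 around a median of 64.9 in Smad3SmKO. Its log2 difference was -0.48 (SE 0.27) with batch in the fit and 0.15 without a batch term. Between group means it was -0.37 in the 30 min digestions and 0.51 in those of 60 min. It was lower in Smad3SmKO in 3 of 4 batches, and the highest Smad3SmKO value, 199.4, was from batch 5, which held no control. The other 6 members tested lay between -0.28 and 0.20.

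The genotype effect on the members in VSMCs passed no test of a difference between the times, as 0 of 9 passed the edgeR test of the difference (0.00844% of all genes), 1 had an unadjusted p under 0.05, and DESeq2 called 0. The 3 smallest unadjusted p belonged to Loxl3 (0.75 higher at 18 weeks, SE 0.33), Plod2 (-0.33, SE 0.20) and Loxl1 (0.28, SE 0.35). For Loxl3 the values were -0.55 at 10 weeks and 0.20 at 18 weeks. All 10 week libraries were of batch 4 and digested for 60 min. The 18 week libraries were of other batches, in part digested for 30 min. A difference between the times thus cannot be told apart from one between batches, and digestion time differed in part as well. The plot of genotype differences sets both times beside each other.

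**Figure D3:**
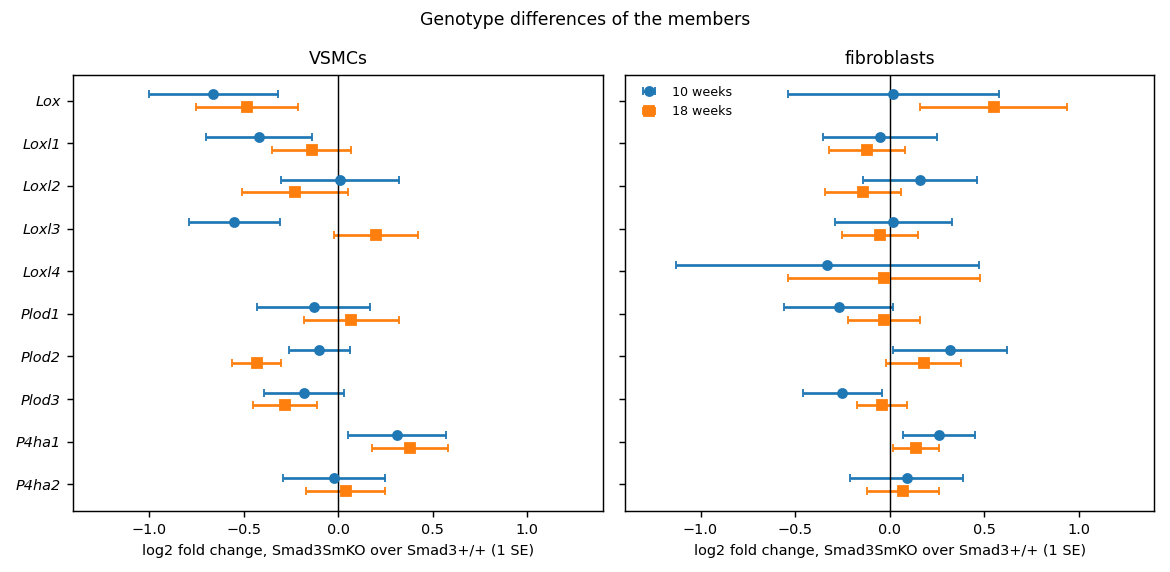
Log2 differences between Smad3SmKO and Smad3+/+ (point, with 1 SE as a bar) for each member tested in VSMCs and fibroblasts at 10 and 18 weeks after deletion. No member passed the adjusted threshold by edgeR. The VSMC value of Plod2 at 18 weeks is -0.43, and that of Loxl3 is -0.55 at 10 weeks and 0.20 at 18 weeks. The times were of different batches.

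**Figure D4:**
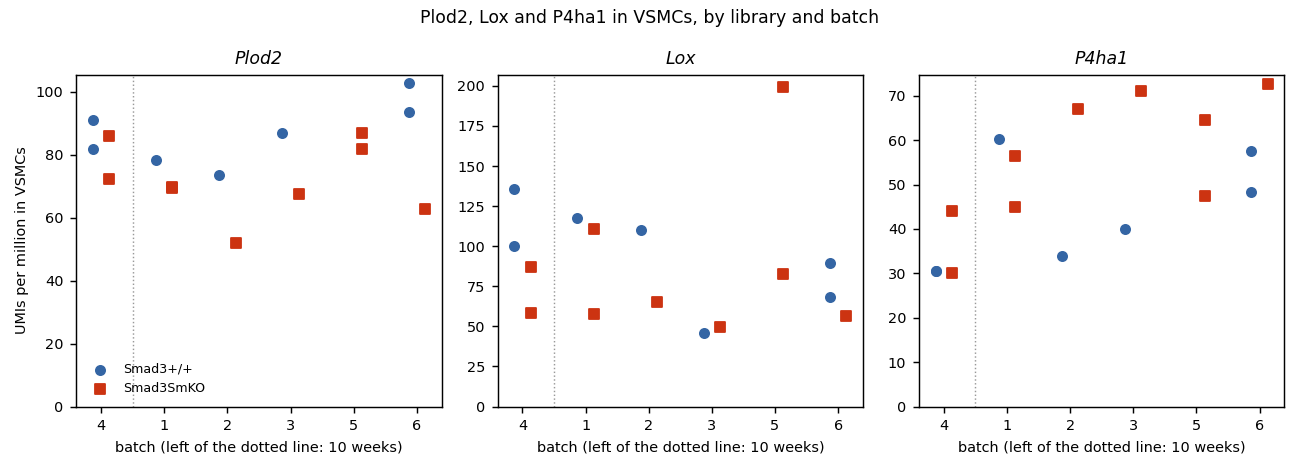
Levels of Plod2, Lox and P4ha1 in VSMCs (CPM, axes from 0) of every library by batch, with blue circles for Smad3+/+ and red squares for Smad3SmKO, and batch 4 of 10 weeks left of the dotted line. In batches 1, 2, 3 and 6 the mean Plod2 level of Smad3SmKO lies below that of Smad3+/+, while Lox in batch 5, with Smad3SmKO libraries alone, reaches 199.4.

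In fibroblasts and in the endothelial gate, where VSMC markers summed to between 632.1 and 13676 and between 1011 and 36208 CPM, 0 of 10 members passed at either time by edgeR (0% of genes in all 4 comparisons), 0 had an unadjusted p under 0.05 and DESeq2 called 0. In fibroblasts of 18 weeks Lox had the highest value, 0.55 (SE 0.39, higher in Smad3SmKO in 3 of 4 batches), where Smad3+/+ libraries averaged 93.4 CPM (SD 68.4, n = 5) and Smad3SmKO libraries 146.2 CPM (SD 105.6, n = 7). It turned to -0.41 in the fit of 60 min digestions alone, which rests on batch 6 with 2 Smad3+/+ and 1 Smad3SmKO library. Between the group means of 60 min, batch 5 included, it was 0.34. The Lox value rose to 0.91 (SE 0.45) without the libraries at odds with their tracer label. P4ha1 (0.14, SE 0.12) and Plod2 (0.18, SE 0.20) followed. Plod2 was -0.41 in the same fit of 60 min digestions and 0.04 between their group means. In fibroblasts of 10 weeks the 3 smallest unadjusted p belonged to P4ha1 (0.26, SE 0.19), Plod3 (-0.25, SE 0.21) and Plod2 (0.32, SE 0.30). P4ha1 and Plod2 were higher in both Smad3SmKO libraries than in both controls (2 of 10 members, 11.5% of all genes), and Plod3 and Loxl4 lower (2 of 10, 11.2%).

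In the endothelial gate of 10 weeks the smallest unadjusted p belonged to Plod3 (0.58, SE 0.27) and Plod1 (-0.45, SE 0.34), whose groups did not overlap (1 of 10 members higher and 1 lower, 13.3% and 14.1% of all genes), and to Loxl4, for which 0 UMIs against 1 give no fold. At 18 weeks 0 of 10 members had groups without overlap in fibroblasts (0.0273% of all genes lower and 0.0342% higher) or in the endothelial gate (0.0514% and 0.0171%). There the smallest unadjusted p belonged to Loxl2 (-0.31, SE 0.17), Loxl1 (-0.36, SE 0.24) and Plod3 (-0.15, SE 0.15). In the endothelial cells outside the other gates 0 of 8 passed by edgeR at either time (0% of genes), Loxl1 was 0.14 and Plod3 0.02 at 18 weeks, and P4ha1, at 0.61 (SE 0.25), was the single member with an unadjusted p under 0.05.

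Of the substrate, modification, processing and hypoxia genes 0 passed by edgeR in VSMCs of either time. Among the 6 TGF-beta-induced genes 1 passed, as Pmepa1, a TGF-beta target that dampens the pathway, fell at 18 weeks (-0.98, SE 0.13, adjusted p 0.0059 by edgeR). Without the libraries at odds with their tracer label 0 of all genes passed by edgeR in that comparison. The 8 substrates had a median of -0.38 at 10 weeks (-0.75 to -0.11) and -0.24 at 18 weeks (-0.42 to 0.02), and the 15 modification partners -0.16 and -0.10, beside -0.01 for all genes.

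The last comparison set digestion times side by side, since enzyme time varied within 18 weeks. Between the 5 libraries of 60 min and the 7 of 30 min at 18 weeks, Loxl3 passed in VSMCs, making 1 of 9 members higher and 0 lower, against 1.85% and 1.73% of all genes. In fibroblasts 0 of 10 passed (1.28% of all genes were higher and 0.611% lower), while 5 had an unadjusted p under 0.05, as did 5 in VSMCs, and DESeq2 called 3 in VSMCs and 4 in fibroblasts. Each of the 9 members in VSMCs and each of the 10 in fibroblasts had a log2 difference above 0, with medians of 0.41 and 0.44, beside -0.00 and 0.00 over all genes. Without TMM scaling 2 of the 9 (Plod1 and P4ha2) and 3 of the 10 (Plod1, Loxl1 and Loxl4) lay below 0. Digestion time is shared with batch and with the tracer label, and these cannot be told apart.

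In VSMCs Loxl3 ranged from 12.7 to 22.8 CPM with a median of 14.9 in the 7 libraries of 30 min, and was at 20.3, 21.9, 24.1, 25.2 and 35.4 in the 5 of 60 min, so the groups overlapped slightly. The log2 difference was 0.69 (SE 0.18, adjusted p 0.0455 by edgeR). It passed in 5 of 20 alternatives, with adjusted p from 0.0094 to 0.214, and was lost when any of 10 of the 12 libraries was left out in turn, all but Smad3+/+ replicate 1 and Smad3SmKO replicate 3. Loxl1 was at a median of 96.1 CPM (92.5 to 190.1) and 163.4 (115.2 to 282.5), a difference of 0.77 (SE 0.22, adjusted p 0.0595 by edgeR). Plod3 was at a median of 39.0 (17.8 to 45.0) and 49.0 (41.3 to 64.5), a difference of 0.51 (SE 0.16, adjusted p 0.0852 by edgeR). The other members lay between 0.06 and 0.68.

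In fibroblasts Lox ran from 33.0 to 198.2 CPM with a median of 63.5 at 30 min, and was at 112.0, 127.7, 142.7, 196.9 and 359.8 at 60 min. The 359.8 was from Smad3SmKO replicate 7, without which the difference was 1.23. The 198.2 was from Smad3SmKO replicate 3, and the other 6 libraries of 30 min lay below all of 60 min. The log2 difference was 1.5 (SE 0.37, adjusted p 0.0581 by edgeR). It passed in 7 of 20 alternatives, among them those without Smad3SmKO replicate 3 (1.84), replicate 5 (1.66) or replicate 6 (1.69). Loxl2 went from a median of 67.6 CPM (57.3 to 91.7) to 92.1 (73.8 to 126.9), a difference of 0.60 (SE 0.15, adjusted p 0.0559 by edgeR), and P4ha1 from 105.0 (78.3 to 115.5) to 131.7 (103.5 to 163.2), a difference of 0.52 (SE 0.16, adjusted p 0.0976 by edgeR). Without Smad3+/+ replicates 4 and 5, which left 3 libraries of 60 min, all Smad3SmKO, Lox in fibroblasts was 1.19 (SE 0.50) and Loxl3 in VSMCs 0.83 (SE 0.26), and 0 members passed in either cell type.

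Other measures moved with digestion time as well. Of the deposited cells 82.5 to 94.7% were kept at 30 min and 51.6 to 83.8% at 60 min, and the VSMC markers in VSMCs, of which 0 passed by edgeR, summed to between 42618 and 69284 CPM and between 67701 and 85826. Fn1 passed in both cell types (1.18 in VSMCs and 2.77 in fibroblasts), and Col1a1 (0.95), Postn (1.13) and P3h4 (0.56) in VSMCs and Atox1 (0.62), the copper chaperone of the lysyl oxidase supply route, and Ankrd37 (1.28) in fibroblasts were also higher at 60 min. The 6 VSMC markers in fibroblasts summed to between 632.1 and 3757 CPM at 30 min and between 1231 and 13676 at 60 min, and the fibroblast markers in VSMCs to between 784.2 and 1292 and between 654.7 and 1003. Of these, Cnn1 passed in fibroblasts (3.43), as did Msln (4.42) of the 3 mesothelial markers, which summed to at most 4.576 CPM there. The 6 dissociation-induced genes summed to between 1481 and 7723 CPM in VSMCs at 30 min and between 2430 and 4904 at 60 min, where Hspa1a was lower (-1.67), and to between 3207 and 6181 and between 3317 and 7327 in fibroblasts, where Atf3 was higher (1.42). The part of these in the member differences was not tested.

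**Figure D5:**
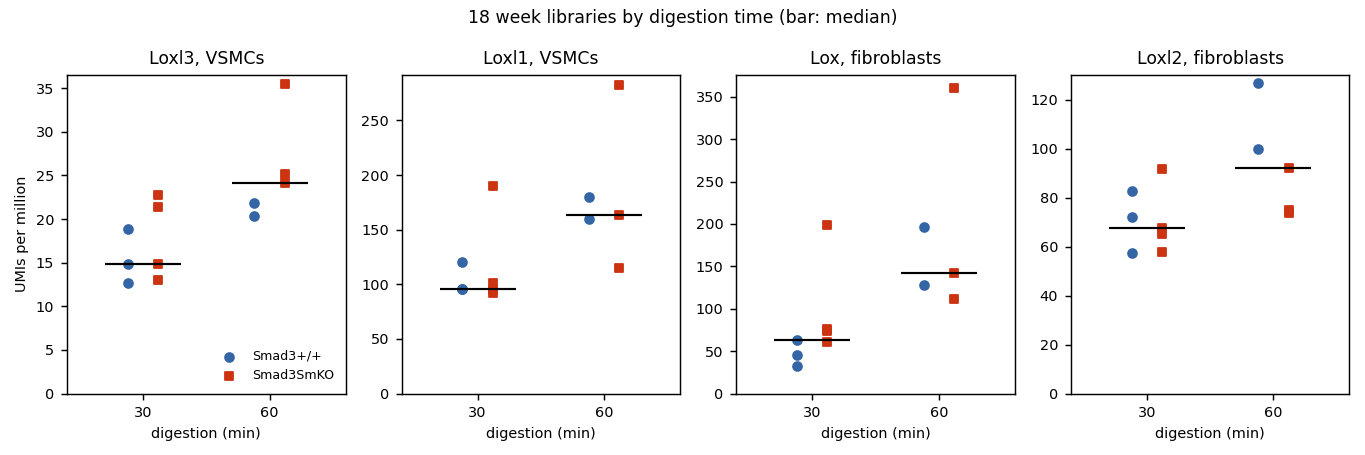
Levels (CPM, axes from 0) of Loxl3 and Loxl1 in VSMCs and of Lox and Loxl2 in fibroblasts in the 12 libraries of 18 weeks, by digestion time, with blue circles for Smad3+/+, red squares for Smad3SmKO and a bar at the median. Lox in fibroblasts has a median of 63.5 at 30 min and 142.7 at 60 min, and Loxl3 in VSMCs 14.9 and 24.1.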

How the data were processed

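Thoracic aortas of 16 mice were dissociated, sorted and sequenced with 10x Genomics 3' chemistry. The deposited files hold counts, that is, whole numbers of UMIs per gene and cell, written by Cell Ranger after the authors aligned reads to mm10 plus the GFP sequence. The labels give version 6 and the file headers 4.0.0. Counts were not normalized, and replicates were not pooled.

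Kept cells had a gene number between 600 and 6000, a UMI total between 2000 and 50000 and a mitochondrial share below 25%, the limits of the study. No doublet caller was run. In an alternative the cells with the most UMIs were left out, in proportion to the size of the library (1593 cells in all). UMIs were summed per library and cell type, from at least 10 cells, so the library, which is the mouse, was the replicate. Sums were tested over all genes with edgeR 4.0.16 (R 4.3.3; quasi-likelihood test, TMM, filterByExpr) and adjusted by Benjamini-Hochberg with a threshold of 0.05. Genotype was fitted with batch, cell type with library, and digestion time with genotype. Binomial intervals are exact (Clopper-Pearson, 95%, scipy 1.17.1). After the fits, the code for genotype and for cell type was also run on simulated counts without batch or library effects. The planted changes were larger than the genotype differences of the members, so that run does not show how well those are found.

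The members and gene lists were chosen with earlier results of these data known. The members are named in every comparison. For genotype, time and digestion, fold changes are given for members that passed and for the 3 with the smallest p. Partner genes are named where they passed, up to 4 per list, by size, and 1 gene of the TGF-beta list is not reported here. The alternatives were DESeq2 1.42.0, no filter on low counts, all deposited barcodes, cells in more than 1 gate left out, stricter gates, the cells with the most UMIs left out, each library left out, no batch or library term, and 1 digestion time. Library totals without TMM, and leaving out the libraries whose GFP goes against their tracer label, were added after seeing the data.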

Additional observations from a re-analysis of the deposited data

Results flagged for a closer look

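In 8 of 60 groups of 4 to 10 libraries a member had 1 library far from the others by Dixon's test, where chance gives about 1 in 20. Smad3SmKO replicate 7 of 18 weeks had the highest Lox level in VSMCs (199.4 CPM, next 110.8) and the highest Loxl3 level in fibroblasts (127.6, next 56.4), where its VSMC markers summed to 13676 CPM. Smad3SmKO replicate 6 of 18 weeks had the highest P4ha1 level in fibroblasts (163.2, next 111.8). Smad3+/+ replicate 4 of 18 weeks had the highest Plod1 (64.11, next 42.83) and Plod3 (112.7, next 84.02) levels in fibroblasts. In the endothelial gate of 18 weeks, P4ha1 was lowest in Smad3+/+ replicate 3 (56.86, next 99.14), and Loxl4 was highest in Smad3+/+ replicate 5 (6 CPM, next 2.618) and in Smad3SmKO replicate 3 (6.245, next 2.51).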

How the results depend on the processing

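The counts of members called in either direction were within 1.5 times the values reported in 267 of 292 settings. The exceptions were in 3 comparisons. For endothelial gate against fibroblasts, 5 members passed with no library block, against 8. For digestion in VSMCs, where 1 passed, the count was 3 by DESeq2, 4 with no filter on low counts, 0 with cells in more than 1 gate left out, 0 with stricter gates, 0 without the cells with the most UMIs, 0 without TMM, 0 without the libraries at odds with their tracer label, and 0 to 3 when each library was left out. For digestion in fibroblasts, where 0 passed, it was 4 by DESeq2, 1 with no filter, 2 with all deposited barcodes, 1 without TMM and 0 to 2 when each library was left out. By direction, VSMCs against the endothelial gate went from 2 higher and 7 lower to 6 and 3 with cells in more than 1 gate left out. The split was 2 and 4 with stricter gates and 1 and 7 without TMM or by DESeq2. It was 1 and 6 with no library block and 2 and 6 without the libraries at odds with their tracer label. Endothelial gate against fibroblasts went from 0 higher and 8 lower to 1 and 7 in 3 settings. These were cells in more than 1 gate left out, stricter gates and no TMM. Over all members and alternatives, 52 of 116 log2 differences changed sign at least once, among them 42 of 67 for genotype, its difference between times included, and 0 of 10 for VSMCs against fibroblasts. Of the members named in a comparison for their p, directions changed for Lox in VSMCs of 18 weeks with no batch term (0.15), for Lox and Plod2 in fibroblasts of 18 weeks with 60 min digestions alone (-0.41 and -0.41), and with cells in more than 1 gate left out for Loxl1 (0.14) and Plod3 (0.02) in the endothelial gate of 18 weeks and for Loxl1 (2.61), Loxl2 (0.80) and Loxl3 (2.43) between VSMCs and that gate, where stricter gates gave 0.02 for Loxl1. The genotype fit of 60 min digestions at 18 weeks rests on batch 6, with 2 Smad3+/+ and 1 Smad3SmKO library. The cause of the sign changes was not tested.

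Over all genes, 5 passed for genotype in VSMCs of 18 weeks, 134 with no filter, 8 by DESeq2, 0 without the libraries at odds with their label and 2 to 6 when each library was left out. In fibroblasts it was 0 at both times, and 3 by DESeq2. At 10 weeks it was 0 and 51 with no filter, and for the difference between times 1 and 70. In the endothelial gate it was 0, and 38 and 120 with no filter. For digestion it was 372 in VSMCs (31 to 1041, leaving out each library 146 to 410) and 276 in fibroblasts (26 to 1192, leaving out each library 52 to 430), and for endothelial gate against fibroblasts 6259 and 2529 with no library block. Without TMM the median over all genes was -0.20 for digestion in fibroblasts and -0.12 in VSMCs, and signs changed for Plod1 (-0.07) and P4ha2 (-0.04) with digestion in VSMCs, for Plod1 (-0.03), Loxl1 (-0.07) and Loxl4 (-0.11) in fibroblasts, for P4ha2 (0.06) between endothelial gate and fibroblasts, for Plod2 (-0.01) between VSMCs and that gate and for Loxl2 (-0.00) with genotype in VSMCs of 10 weeks, none of which had passed. Of the genes called, those higher were then 179 of 1191 for digestion in fibroblasts (with TMM 276 were called, 89 of them lower), 100 of 369 in VSMCs (192 of 372), 4394 of 6431 between endothelial gate and fibroblasts (2604 of 6259) and 2664 of 8078 between VSMCs and that gate (3733 of 7900). Cell types were compared within library, and genotype with batch as a term. By replicate number, no paired analysis was possible because the numbers only name libraries. With 2 mice per group at 10 weeks and 0 to 3 UMIs of Loxl4 in many sums, small differences could not be detected.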
